A study of Mus musculus with 12 samples.

Results

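The cytosolic ribosomal protein genes encode the proteins of the ribosomes that translate messenger RNA (mRNA) in the cytoplasm. The members were the protein-coding genes of the count table whose symbol starts with Rpl or Rps and a digit, or is Rpsa, Rplp0, Rplp1 or Rplp2. Pseudogenes (symbols with -ps, or annotated so) and the S6 kinase genes, whose symbols start with Rps6k, were left out. This gave 86 of the 41388 genes in the table, 34 named for the small (40S) subunit and 52 for the large (60S) subunit. Among the 92 symbols that fitted the naming rule, 6 (Rpl37rt, Rpl6l, Rps12l1, Rps3a2, Rps3a3 and Rps4l) are annotated as pseudogenes and were not counted as members. Rps19bp1 fitted the rule but encodes a protein that binds a ribosomal protein, not a ribosomal protein.

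Most of these proteins are present in a single copy per ribosome, joined to ribosomal RNA in the 40S subunit, which reads the mRNA, and the 60S subunit, which forms the peptide bond. The acidic proteins of the stalk, encoded by Rplp0, Rplp1 and Rplp2, receive the elongation factors. Most of the mRNAs begin with a 5′ terminal oligopyrimidine tract, through which their translation responds to the mTOR pathway. Many of the genes have processed pseudogenes elsewhere in the genome.

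RNA sequencing of the prefrontal cortex (PFC) was available for 12 libraries from male Swiss Webster mice aged 10 weeks, with 4 libraries in each of 3 groups. The CON mice were raised conventionally and lived in the standard animal unit, the germ-free (GF) mice lived in isolators, and the exGF mice were born germ-free and moved from isolators on postnatal day 21 to live beside CON mice, where environmental microbes colonized them. All received the same autoclaved diet, none carried a named transgene or deletion, and each library held RNA pooled from 2 to 3 animals, so that replicates are pools and not single animals. The exGF columns of the table are called GFR1 to GFR4, and these names are kept here because the labels do not tie them to particular exGF samples.

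Depth on genes ran from 13280926 (GF replicate 1) to 29134760 (CON replicate 3) counts per library. Pairs of libraries within a group gave chi-square values of 8.73 to 37.3 averaged over genes, well above the value near 1 that read sampling alone would give. Markers of cortical excitatory neurons summed to 5578 to 6597 CPM (counts scaled to the size of the library) in every library, markers of the striatum to 46.5 to 123 and markers of the choroid plexus to 3.49 to 15.0. Of 10 marker lists of 5 genes each, only the oligodendrocyte list (4 genes called higher in GF than in CON) and the meninges list (2 called lower in GF) held a called gene, at an adjusted p under 0.1 in edgeR's quasi-likelihood test, Benjamini-Hochberg adjusted. In such bulk tissue, fewer cells of a type and less RNA per cell cannot be told apart.

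For 78 RefSeq promoters of 66 of the 86 members on GRCm38.p6, the sequence shows what the members share beyond their names. A pyrimidine tract of at least 5 bases that began with C and lay within 10 bases of the annotated start was found in 53.8% of the members' promoters and in 30.7% of all 32851 promoters in the table. CGGAAG, the core of GABPA (ETS family) sites, was found on either strand between 250 bases before and 50 bases after the start in 60.3% against 16.9%, and ATGGCG, the core of YY1 sites, in 30.8% against 8.93%. On the other strand CGGAAG reads CTTCCG, which itself holds a run of 5 pyrimidines, so these searches can overlap. A match is a description of the letters and not a bound site. Below are 100 bases of 6 members that the results turn on or that show the range of these features, from 80 bases before the annotated start. Capitals mark the first tract found from 10 bases before the start onwards, and each CGGAAG or CTTCCG. A run of pyrimidines that begins further upstream was counted and marked only from there on, as in Rpl7a. Rpl41 has no tract by this rule, which says only that these letters are not near its annotated start.
Rpl7a, chr2:26910727-26910826, + strand: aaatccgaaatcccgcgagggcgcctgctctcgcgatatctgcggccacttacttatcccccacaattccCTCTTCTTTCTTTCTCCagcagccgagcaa
Rpl35, chr2:39005112-39005211, - strand: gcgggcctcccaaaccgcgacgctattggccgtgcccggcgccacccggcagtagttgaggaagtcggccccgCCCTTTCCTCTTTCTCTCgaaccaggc
Rps12, chr10:23787190-23787289, - strand: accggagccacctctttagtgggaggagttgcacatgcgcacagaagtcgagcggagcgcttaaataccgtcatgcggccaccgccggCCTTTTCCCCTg
Rps6, chr4:86857348-86857447, - strand: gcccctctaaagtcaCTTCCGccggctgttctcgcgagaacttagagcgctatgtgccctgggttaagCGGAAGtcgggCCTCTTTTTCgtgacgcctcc
Rplp2, chr7:141447571-141447670, + strand: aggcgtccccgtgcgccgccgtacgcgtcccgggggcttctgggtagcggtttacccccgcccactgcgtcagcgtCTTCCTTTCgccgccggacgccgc
Rpl41, chr10:128549149-128549248, - strand: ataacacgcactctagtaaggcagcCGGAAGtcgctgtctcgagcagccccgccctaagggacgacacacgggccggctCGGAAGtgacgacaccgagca

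The members were abundant in every library. Together they held 1.03% to 1.74% of all counts in CON libraries, 1.28% to 1.39% in GF libraries and 0.944% to 1.45% in exGF libraries, and the 3 ranges overlapped. Over the 12 libraries, 83 of the 86 members passed edgeR's filter on low counts. The 3 that did not were Rpl10l (0 counts in every library), Rpl39l (0 to 4) and Rpl3l (1 to 11), which are paralogs known for expression in testis or in muscle. Rps27rt, annotated as protein-coding but sharing 92.7% of its 31-base words with other genes, had 4 to 16 counts and passed the filter only in the comparison of CON with exGF and over all libraries.

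Levels of different members were compared as CPM per kilobase (kb) of 1 annotated transcript. Rplp1, a stalk protein gene, had the highest level with 772 ± 147 CPM per kb (SD, n = 12 libraries), next to Rps29 of the 40S subunit with 738 ± 166, and these neighbours did not differ beyond their spread. Rps15 (571 ± 115), Rpl17 (431 ± 76.4) and Rpl41 (416 ± 98.3) followed, again with overlapping ranges. Because members move together from library to library, such overlap does not tell whether a member lies above its neighbour within each library. At the other end stood Rps20 (21.5), Rps19bp1 (19.3), Rpl7l1 (15.0), Rps27l (13.2) and Rps27rt (1.09). The annotated transcript of Rps20 has 3706 bases. Per kb of coding sequence Rps20 reached 223 CPM and rank 59 of 83, so it was among the 5 lowest only on the transcript scale. Rpl7l1, a relative of Rpl7, Rps19bp1, Rps27l and Rps27rt stayed among the 5 lowest per coding length. Rpl41, whose coding sequence has 75 bases, came first on that scale. The plot of levels per kb gives the group means of every member in this order.

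**Figure D1:**
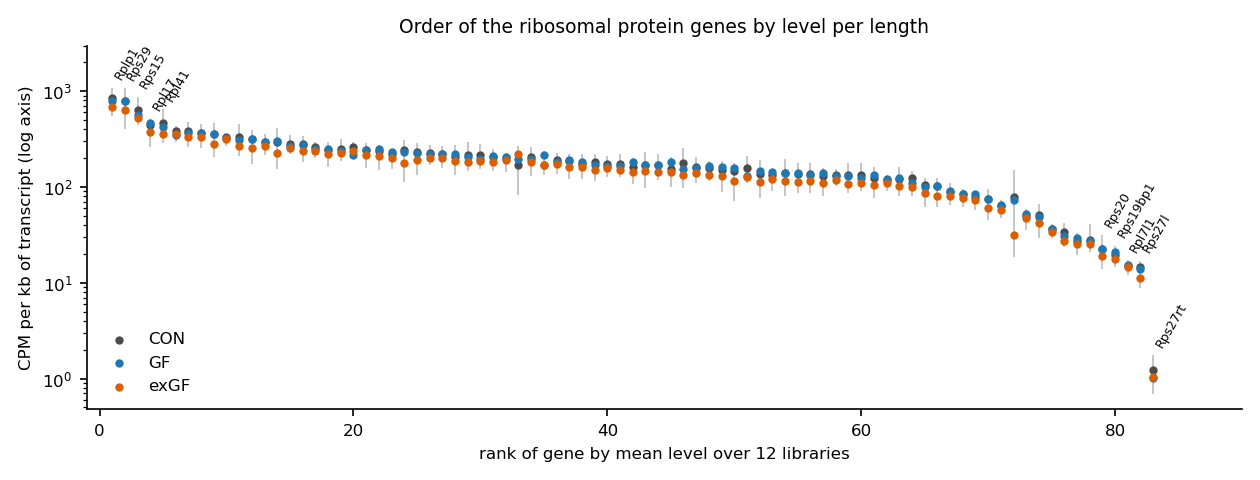
CPM per kb of transcript (log axis) of 83 ribosomal protein genes, ordered by their mean over 12 libraries. Points are the means of 4 libraries of CON (grey), GF (blue) and exGF (orange), and grey lines run from the lowest to the highest library. From Rplp1 (772) to Rps27l (13.2) neighbouring ranges overlap, and Rpl29 at rank 72 has a wide range from 18.4 to 149.

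The members moved together from library to library, and the libraries of a group did not agree. Relative to the CON mean, the mean log2 CPM of the 83 members was 0.11, 0.34, -0.03 and -0.42 in CON replicates 1 to 4. It was 0.04, 0.07, -0.01 and -0.03 in GF replicates 1 to 4. It was -0.15, -0.56, -0.19 and 0.07 in GFR1 to GFR4. CON replicate 4 and GFR2 were the lowest and CON replicate 2 the highest, while the 4 GF libraries lay within 0.10 of each other. The group means of exGF (-0.21, SD 0.26) and GF (0.02, SD 0.05) both lay within the spread of the CON libraries (SD 0.32). After the group means were taken out, the first principal component of the members held 80.2% of their variance over the 12 libraries, against 61.7% for 77 mitochondrial ribosomal protein genes and 68.5% for 77 nuclear genes of oxidative phosphorylation subunits.

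Those other lists followed the same libraries. Mitochondrial ribosomal protein genes were at 0.18 in CON replicate 2, -0.25 in CON replicate 4 and -0.31 in GFR2. Oxidative phosphorylation subunits were at 0.28, -0.36 and -0.42 in the same libraries. The dependence of all genes' levels on transcript length moved with them as well. This slope, in log2 CPM per doubling of transcript length relative to the mean of all libraries, was -0.09 in CON replicate 2, the library with the highest member mean, and 0.09 and 0.07 in CON replicate 4 and GFR2, the libraries with the lowest. In the other 9 libraries it lay between -0.05 and 0.02. Members are short, with a median transcript of 836.5 bases against 2896 bases for all tested genes. The share of read pairs that fell outside genes was 7.31% in GFR2 and 4.57% to 6.45% elsewhere, and its part and that of the length slope in the level of the members were not tested.

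**Figure D2:**
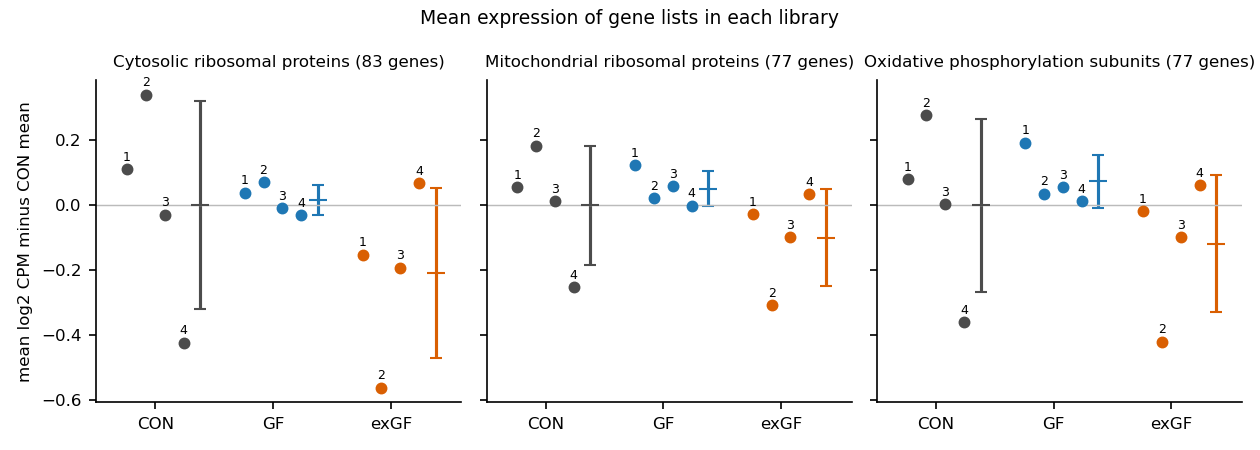
Mean log2 CPM of each gene list in each library, relative to the CON mean, for 83 cytosolic ribosomal protein genes, 77 mitochondrial ribosomal protein genes and 77 oxidative phosphorylation subunit genes. Numbers name the replicate (GFR1 to GFR4 for exGF), and bars give the mean and SD of 4 libraries. In all 3 panels CON replicate 4 and GFR2 are lowest and CON replicate 2 is highest.

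**Figure D3:**
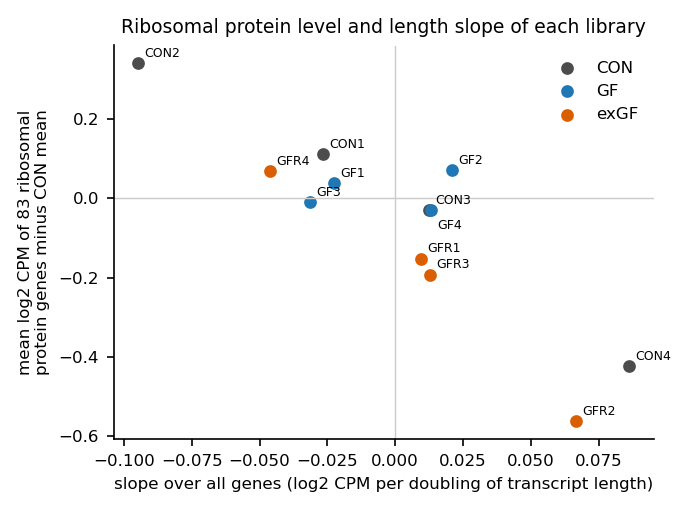
Mean log2 CPM of 83 ribosomal protein genes relative to the CON mean (vertical axis) against the slope of all genes' log2 CPM per doubling of transcript length (horizontal axis), 1 point per library. CON2 lies at the upper left, and CON4 and GFR2 lie at the lower right.

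The first comparison asked whether ribosomal protein mRNAs of the PFC differ between GF and CON mice. These groups descended from different breeding pairs and differed in housing, and neither can be told apart from the lack of microbes. As a group they centred on 0 in GF against CON. The median log2 fold change of the 82 tested members was -0.0043 (quartiles -0.07 and 0.05), beside 0.0069 for all 15542 tested genes (quartiles -0.10 and 0.12). Of the 82, 45 were below 0 (54.9%, against 48.3% of all genes). By edgeR's quasi-likelihood test, Benjamini-Hochberg adjusted, 0 members were called at an adjusted p under 0.1, where 0.251% of all genes were. DESeq2 called 1 (Rpl7a), but its share of calls over all genes is not given, so this count cannot be set against one. At an unadjusted p under 0.05, 1 member was lower in GF (Rpl7a, against 3.94% of all genes) and 1 was higher (Rpl21, against 4.75%). Every GF library lay below every CON library for 1 member (Rpl7a, 1.22%, against 2.55% of all genes), and above for 0 members (against 2.53%). The 40S members had a median of 0.0062 and the 60S members of -0.0157.

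Rpl7a (ENSMUSG00000062647, chromosome 2 from 26910764 to 26913318, + strand) encodes a 60S protein. It was at 226, 268, 248 and 214 CPM in CON replicates 1 to 4 and at 200.5, 192, 199 and 189.5 CPM in GF replicates 1 to 4. All GF libraries were lower than all CON libraries, and among GF libraries it varied little. The log2 fold change was -0.29 (SE 0.08, 4 against 4 libraries, adjusted p = 0.271 by edgeR's quasi-likelihood test, Benjamini-Hochberg adjusted), and that adjusted p was 0.0536 with a correction for length and GC content and 0.0797 by DESeq2. In GFR1 to GFR4 it was at 248, 191, 201 and 231 CPM, a range that overlapped both other groups. Of its 31-base words 87.1% are found in other genes, most of them in the pseudogene Rpl7a-ps11, so that reads of both can be confused.

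Rpl21 (ENSMUSG00000041453, chromosome 5 from 146832890 to 146837032, + strand), another 60S gene, went the other way. It was at 297, 389, 337 and 247 CPM in CON replicates 1 to 4, and at 425, 443, 357 and 391 CPM in GF replicates 1 to 4. Only CON replicate 2 reached into the GF range. The log2 fold change was 0.35 (SE 0.12, 4 against 4 libraries, adjusted p = 0.402 by edgeR's quasi-likelihood test, Benjamini-Hochberg adjusted).

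The other members with the largest differences between CON and GF all had overlapping groups. Lower in GF were Rpsa, a 40S protein that also serves as a laminin receptor (log2 -0.28, SE 0.13), Rpl36 (-0.19, SE 0.20), Rps15 (-0.17, SE 0.15) and Rps18 (-0.16, SE 0.12). Higher in GF were Rpl12 (0.22, SE 0.16), Rpl26 (0.22, SE 0.26), Rps26 (0.16, SE 0.12) and Rps6 (0.12, SE 0.11), the last encoding the 40S protein that the S6 kinases phosphorylate. The adjusted p of these 8 genes ran from 0.585 to 0.859 in edgeR's quasi-likelihood test, Benjamini-Hochberg adjusted. Without CON replicate 4 the value was 0.06 for Rpl12, -0.0076 for Rpl26, 0.0365 for Rps26 and 0.0108 for Rps6, and without CON replicate 2 it was -0.13 for Rpsa, 0.0519 for Rpl36, 0.0368 for Rps15 and -0.06 for Rps18. Of the 31-base words of Rps26, 45.5% are found in the pseudogene Rps26-ps1. This pseudogene had 125 to 428 counts in CON libraries, 1 to 13 in GF libraries and 7 to 9 in exGF libraries. Rps26 itself had 1569 to 3287 counts in CON and GF libraries, and the part of Rps26-ps1 in the difference was not tested. The median over the members depended on single CON libraries: it was -0.13 with 76 of 82 members below 0 without CON replicate 4, and 0.11 with 9 of 83 below 0 without CON replicate 2. Without CON replicate 4, 11 members had an unadjusted p under 0.05 in the lower direction, and without CON replicate 2, 4 had one in the higher direction. The shares over all genes given above belong to the fit with all libraries, so these counts cannot be set against them.

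**Figure D4:**
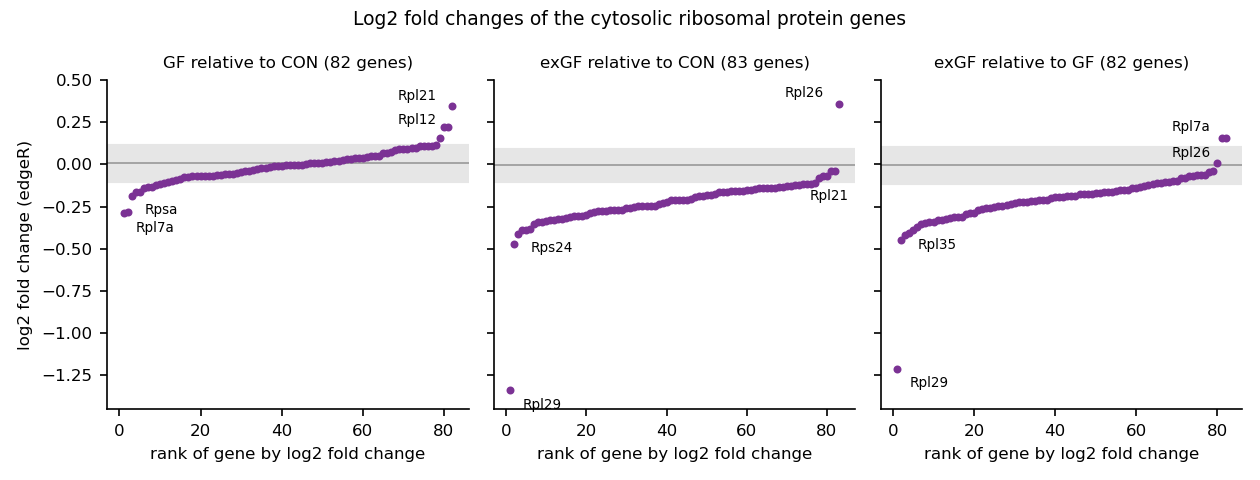
Log2 fold changes of the tested ribosomal protein genes in each comparison, sorted from lowest to highest, 1 point per gene. The grey band runs from the lower to the upper quartile of all tested genes, and the grey line is their median. The members centre on 0 in GF relative to CON, while 82 of 83 lie below 0 in exGF relative to CON and 79 of 82 in exGF relative to GF.

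The second comparison asked the same of exGF against CON. Here too breeding pairs and the isolator housing up to postnatal day 21 cannot be told apart from the early lack of microbes. Nearly all members were lower in exGF by a small amount, and none passed the test. The median log2 fold change of the 83 tested members was -0.21 (quartiles -0.29 and -0.15), beside -0.0065 for all 15813 tested genes (quartiles -0.11 and 0.09). Of the 83, 82 were below 0 (98.8%, against 52.1% of all genes), and because the members move together within a library these are not 83 separate observations. The exception was Rpl26. By edgeR's quasi-likelihood test, Benjamini-Hochberg adjusted, 0 members were called, where 0.0696% of all genes were, and DESeq2 called 0. At an unadjusted p under 0.05, 3 members were lower (Rpl29, Rps24 and Rpsa, against 2.87% of all genes) and 0 were higher (against 2.46%). For 0 members did every exGF library lie below every CON library (against 1.52% of all genes), and for 0 above (against 1.78%).

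The size of the difference depended on few libraries. Members below 0 numbered 76 of 83 without CON replicate 2, 75 of 83 without GFR2 and 80 to 82 without any other single library. Again these are not separate observations. Without CON replicate 2, the highest, the median was -0.09 and 0 members had an unadjusted p under 0.05 in the lower direction. Without GFR2, the lowest exGF library, it was -0.10 and 1 member had one. Without CON replicate 4, the lowest CON library, it was -0.33 and 45 members had one, and without GFR4 it was -0.29 and 20 had one. Without CON replicate 1 or GFR1, 1 member had one, and without CON replicate 3, 2 had one. Without both CON replicate 4 and GFR2, a choice made after the values were seen, the median was -0.22 and 22 members had an unadjusted p under 0.05. In none of these fits was a member called by edgeR's quasi-likelihood test at an adjusted p under 0.1. A correction for transcript length and GC content gave a median of -0.15, with 12 members at an unadjusted p under 0.05. The share of all genes under that p is not given for these alternative fits, so the counts cannot be read as particular to the members. The 40S members had a median of -0.22, with 34 of 34 below 0, and the 60S members of -0.21, with 48 of 49 below 0.

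Rpl29 (ENSMUSG00000048758, chromosome 9 from 106429454 to 106431568, + strand) encodes a small, basic 60S protein and had the largest log2 fold change in edgeR's fit. It was at 68.0, 109, 38.8 and 13.5 CPM in CON replicates 1 to 4, at 53.8, 56.0, 51.2 and 51.3 in GF replicates 1 to 4, and at 43.1, 14.2, 17.8 and 16.8 in GFR1 to GFR4. The CON libraries spanned a range that took in all other libraries, the GF libraries were nearly equal, and 3 of 4 exGF libraries lay near CON replicate 4. In exGF against CON the log2 fold change was -1.34 (SE 0.50, 4 against 4 libraries, adjusted p = 0.787 by edgeR's quasi-likelihood test, Benjamini-Hochberg adjusted). It was -0.81 without CON replicate 2, -1.81 without GFR1 and -0.13 by DESeq2, whose prior draws variable genes towards 0 and which gave Rps24 a larger difference (-0.26). Within groups, Rpl29 changed by 2.71 log2 units for each unit of the mean of the other members, the steepest slope of all 83. Of its 31-base words 78.7% are found in other genes, 54.1% in Uimc1, while the pseudogenes Rpl29-ps1, Rpl29-ps2 and Rpl29-ps5 had 0 to 14 counts in any library. Rpl29 itself had 328 counts or more.

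Rps24 (ENSMUSG00000025290, chromosome 14 from 24487125 to 24496959, + strand), a 40S gene mutated in some patients with Diamond-Blackfan anaemia, was at 436, 494, 381 and 254 CPM in CON replicates 1 to 4 and at 301, 184, 292 and 359.7 in GFR1 to GFR4. Only CON replicate 4 fell within the exGF range. The log2 fold change was -0.47 (SE 0.20, 4 against 4 libraries, adjusted p = 0.903 by edgeR's quasi-likelihood test, Benjamini-Hochberg adjusted). It was -0.30 without GFR2 and -0.26 by DESeq2. In GF replicates 1 to 4 Rps24 was at 349, 402, 341 and 413 CPM. Rpsa (ENSMUSG00000032518, chromosome 9 from 120127689 to 120132369, + strand) was at 312, 404, 283 and 236 CPM in CON replicates 1 to 4 and at 242, 214, 236 and 298 in GFR1 to GFR4. The groups overlapped, and the log2 fold change was -0.33 (SE 0.15, 4 against 4 libraries, adjusted p = 0.924 by edgeR's quasi-likelihood test, Benjamini-Hochberg adjusted).

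Rpl36 (log2 -0.41, SE 0.24), Rpl41 (-0.39, SE 0.20) and Rps12 (-0.39, SE 0.22) were the next lowest in exGF against CON, with the groups overlapping in each. Without CON replicate 2 these values were -0.16, -0.17 and -0.17. Rpl26 (ENSMUSG00000060938, chromosome 11 from 68901583 to 68906989, + strand), a 60S protein that also binds the mRNA of p53, was the only member above 0. It was at 100.3, 164, 98.7 and 50.4 CPM in CON replicates 1 to 4, at 84.3, 152, 118 and 126 in GF replicates 1 to 4 and at 153, 85.0, 132 and 164 in GFR1 to GFR4. All 3 groups overlapped. Without CON replicate 4 the log2 fold change in exGF was 0.13 and by DESeq2 0.10, and with all libraries in edgeR's fit it was 0.36 (SE 0.28, 4 against 4 libraries, adjusted p = 0.968 by edgeR's quasi-likelihood test, Benjamini-Hochberg adjusted).

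**Figure D5:**
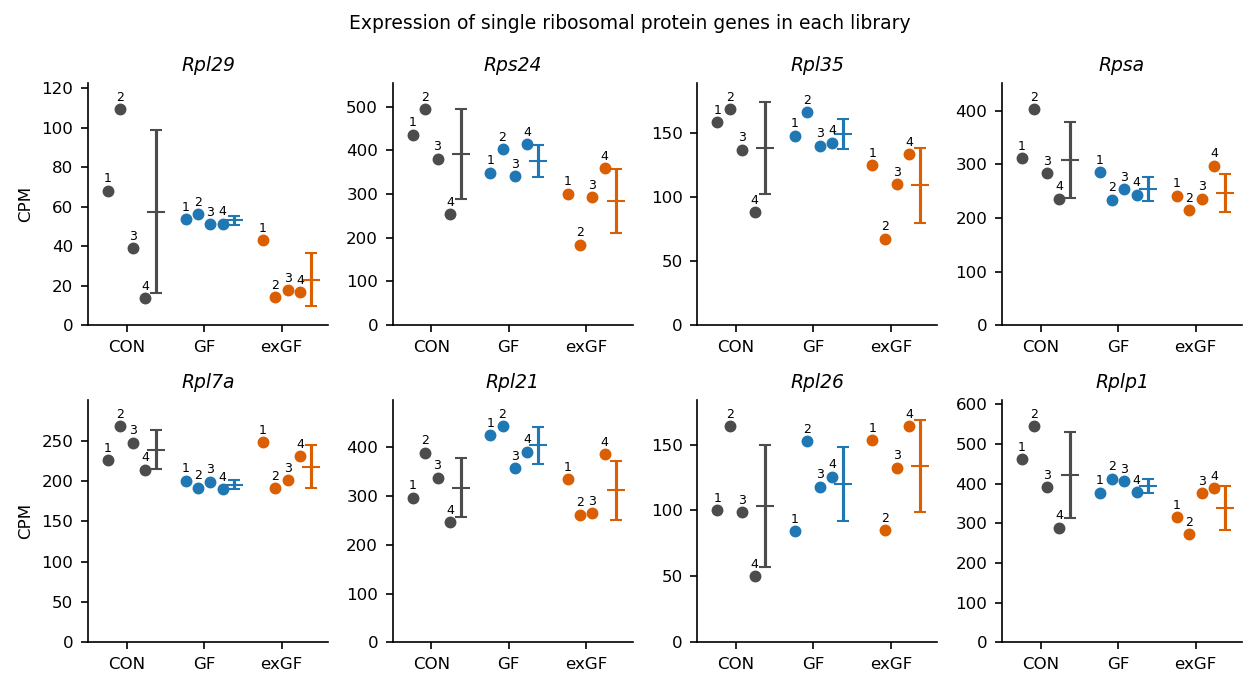
CPM of 8 ribosomal protein genes in each library of CON, GF and exGF. Numbers name the replicate (GFR1 to GFR4 for exGF), bars give the mean and SD of 4 libraries, and each vertical axis starts at 0. Rpl29 runs from 13.5 to 109 CPM within CON, while Rpl7a is lower in all 4 GF libraries than in all 4 CON libraries.

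The third comparison set exGF against GF, which share birth without microbes. They differ in the colonization after weaning and in the housing from then on, and these cannot be told apart. It uses the libraries of the first and second comparison again, so the 3 are not independent. Here too nearly all members were lower in exGF, and 0 members passed edgeR's quasi-likelihood test, Benjamini-Hochberg adjusted, where 0% of all genes were called, and DESeq2 called 0. The median log2 fold change of the 82 tested members was -0.19 (quartiles -0.27 and -0.13), beside -0.0047 for all 15569 tested genes, and 79 of 82 (96.3%, against 51.3% of all genes) were below 0. At an unadjusted p under 0.05, 18 members (22%) were lower, against 3.35% of all genes, and 0 were higher, against 3.3%. Because the members move together within a library, these too are not separate observations. Of 77 oxidative phosphorylation subunits, 73 were below 0 and 19 had such a p in either direction. Of 77 mitochondrial ribosomal protein genes, 74 were below 0 and 7 had such a p. Every exGF library lay below every GF library for 3 members (Rpl29, Rpl35 and Rps29, 3.66%), against 1.55% of all genes, and above for 0, against 1.77%. All 33 tested 40S members were below 0 with a median of -0.23, and 46 of 49 60S members with a median of -0.18.

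The number at an unadjusted p under 0.05 was 7 without GFR2, 7 without GF replicate 2 and 57 without GFR4, the exGF library with the highest member mean. It was 12 to 23 without any other single library. The median was -0.09 without GFR2 and -0.29 without GFR4. With the correction for length and GC content 33 members were lower and 1 was higher at an unadjusted p under 0.05, and the median was -0.16. For these alternatives too the share of all genes is not given, and whether such counts are particular to the members was not tested.

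Rpl29 again had the largest log2 fold change in edgeR's fit, at -1.21 (SE 0.27, 4 against 4 libraries, adjusted p = 0.709 by edgeR's quasi-likelihood test, Benjamini-Hochberg adjusted). GFR1, at 43.1 CPM, stood well above the other exGF libraries, and without it the log2 fold change was -1.70 with an adjusted p of 1.84e-05 by the same edgeR test. By DESeq2 the log2 fold change was -0.34. Without a filter on low counts the adjusted p was 0.00479, and over all alternatives it ran from 1.84e-05 to 0.999. Rpl35 (ENSMUSG00000062997, chromosome 2 from 39001580 to 39005624, - strand), a 60S gene, was at 148, 166, 140 and 142 CPM in GF replicates 1 to 4 and at 125, 67.4, 109.8 and 134 in GFR1 to GFR4. The groups did not overlap, by a small margin, and the log2 fold change was -0.45 (SE 0.16, 4 against 4 libraries, adjusted p = 0.736 by edgeR's quasi-likelihood test, Benjamini-Hochberg adjusted). In the annotation used here 61.9% of its 31-base words also lie in Wdr38.

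Rps29, the second most abundant member per kb, was at 304, 308, 301 and 319.6 CPM in GF replicates 1 to 4 and at 267, 157, 273 and 287 in GFR1 to GFR4. All exGF libraries were lower, GFR2 by far the most. Its log2 fold change was -0.32 (SE 0.15, 4 against 4 libraries, adjusted p = 0.739 by edgeR's quasi-likelihood test, Benjamini-Hochberg adjusted). Rps12 (log2 -0.42, SE 0.17), Rps24 (-0.40, SE 0.16) and Rps13 (-0.39, SE 0.15) had larger differences but overlapping groups. Without GFR2 these were -0.27, -0.24 and -0.25, and Rpl35 was at -0.28. The 3 members above 0 were Rpl7a (0.16, SE 0.09), Rpl26 (0.15, SE 0.19) and Rpl9 (0.0097, SE 0.11). Rpl7a was at 0.09 without GFR1, Rpl26 at 0.02 without GF replicate 1, and Rpl9 was below 0 without GF replicate 2, GF replicate 4, GFR3 or GFR4.

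The members were also set against the mean of all members in the same library. This takes out the common movement only for a gene that moves by 1 log2 unit per unit of that mean, and values of genes with steeper or shallower slopes still go with the library mean. On this scale Rpl7a was at 0.77 to 1.23 log2 units in CON libraries, 0.58 to 0.72 in GF libraries and 0.85 to 1.21 in exGF libraries. All 4 GF libraries were below the other 8. Rpl21 was at 1.17 to 1.5 in CON, 1.56 to 1.79 in GF and 1.31 to 1.66 in exGF libraries, so that GF and CON did not overlap. Rpl26 was at -0.85 to 0.08 in CON libraries and 0.04 to 0.48 in exGF libraries. Rpl29 was at -1.24 to -1.19 in GF libraries, while CON libraries ran from -2.75 to -0.50 and exGF libraries from -2.92 to -1.35. These genes were singled out for these patterns, so the values are a description. Rpl7l1 (0.39), Rpl7a (0.40) and Rpl4 (0.48) had the shallowest slopes on the mean of the other members, and Rpl26 (1.91) and Rpl29 (2.71) the steepest.

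Members of the stalk and of other known roles were looked at by name. Rplp0, Rplp1 and Rplp2 had log2 fold changes of -0.05, -0.10 and 0.02 in GF against CON and of -0.17, -0.33 and -0.25 in exGF against CON. For Rplp1 the CPM were 462, 545, 392 and 289 in CON replicates 1 to 4, 377, 412, 407 and 379.5 in GF replicates 1 to 4 and 316, 273, 377 and 389.5 in GFR1 to GFR4. The GF and exGF libraries all lay within or just below the CON range. Rpl5 and Rpl11, which form a particle with 5S ribosomal RNA and can bind Mdm2, were at log2 0.07 and -0.04 in GF and at -0.11 and -0.26 in exGF against CON. Rps27a, which encodes a fusion of ubiquitin and a 40S protein, was at -0.07 and -0.18, and Rps6 at 0.12 and -0.16. None of these had an adjusted p under 0.805 in those comparisons by edgeR's quasi-likelihood test, Benjamini-Hochberg adjusted.

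Several ribosomal proteins have a paralog encoded by another gene, and the balance within these pairs is given here as a description. Rpl22l1 made up 57.6% ± 3.32 of the sum of Rpl22 and Rpl22l1 per kb in CON libraries, 58.4% ± 4.81 in GF and 57.9% ± 5.63 in exGF libraries (SD, n = 4 each). These shares rest on the annotated transcripts, of 2051 bases for Rpl22 and 552 bases for Rpl22l1. Per kb of coding sequence Rpl22 was the higher of the pair, with a mean of 190 CPM against 74.6 for Rpl22l1. Rpl36al made up 33.4% ± 3.31, 33.3% ± 1.57 and 35.1% ± 2.96 of its sum with Rpl36a. Rps27l, a p53-induced relative of Rps27, made up 3.87% ± 0.171 of their sum in CON, 3.58% ± 0.390 in GF and 3.27% ± 0.296 in exGF libraries. Its log2 fold change in exGF against CON was -0.38 (SE 0.19, 4 against 4 libraries, adjusted p = 0.940 by edgeR's quasi-likelihood test, Benjamini-Hochberg adjusted), on 102 to 220 counts per library.

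Of the other genes of translation, none was called in any comparison by edgeR's quasi-likelihood test, Benjamini-Hochberg adjusted. Fau, which encodes a 40S protein fused to a ubiquitin-like protein, and Rack1, a 40S protein, had log2 fold changes of -0.16 and -0.08 in GF and of -0.24 and -0.18 in exGF against CON. The 6 elongation factor genes had medians of 0.03 in GF and -0.12 in exGF against CON. Eef1a1, which brings the aminoacyl-tRNA, was at 1463 to 2086 CPM over the 12 libraries and at log2 0.06 in GF and -0.11 in exGF. Eef1a2, its neuronal form, was at 0.11 and 0.07, and Eef2, the translocase, at -0.01 and -0.03. Of the subunits that reload Eef1a1, Eef1b2 was at 0.09 and -0.14, Eef1d at -0.17 and -0.14 and Eef1g at -0.23 and -0.20.

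Of 14 other RNAs listed for a terminal pyrimidine tract, 12 were in the table, among them the noncoding Gas5 and Snhg6. Their medians were 0.08 in GF (11 of 12 above 0) and -0.07 in exGF (9 of 12 below 0) against CON. The 26 genes of ribosome biogenesis, which make and process ribosomal RNA, had medians of -0.02 and -0.05, and the 12 regulators in the mTOR pathway of -0.07 and 0.03. Mitochondrial ribosomal protein genes had medians of 0.04 and -0.10 and oxidative phosphorylation subunits of 0.05 and -0.14 in the same comparisons, with 67 and 69 of 77 genes below 0 in exGF. In exGF against GF the medians were -0.02 for elongation factors, -0.12 for the other RNAs listed for a tract and -0.05 for ribosome biogenesis. They were 0.11 for mTOR regulators, -0.14 for mitochondrial ribosomal proteins and -0.19 for oxidative phosphorylation subunits. Beside these stand medians over all tested genes of 0.0069, -0.0065 and -0.0047 for GF against CON, exGF against CON and exGF against GF.

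Across the 83 tested genes, which are not independent replicates, the rank correlation of the log2 fold change in exGF against CON was 0.27 with transcript length, -0.33 with GC content and -0.01 with the share of 31-base words found in other genes. In GF against CON it was 0.11, -0.25 and -0.06. More of these words are shared than unique in 52 of the 86 members, and the median share is 57.7%. Words shared with genes that overlap a member were not set apart, so this share does not measure multiple alignment. The authors' counting left out reads that align to several places, and how many of the members' reads this touched was not tested. The share of multiply aligned reads was 13.0% to 19.2% per library, and with this share as a covariate the median of the members was -0.04 in GF and -0.19 in exGF against CON.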

How the data were processed

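The authors used Trimmomatic 0.32 for trimming and STAR for alignment of read pairs to GRCm38, counted pairs on Ensembl genes with HTSeq 0.6.0 without regard to strand, and deposited these raw counts without normalization. Only uniquely aligned pairs were counted, so genes with near-identical copies lose reads. Rows for pairs given to no gene were left out, and 4 columns called GFR were taken as exGF. Each pair of groups was filtered with edgeR's filterByExpr, normalized by TMM and fitted with edgeR 4.0.16's quasi-likelihood test (R 4.3.3) over all genes, Benjamini-Hochberg adjusted. The study's own threshold, an adjusted p under 0.1, was used for calls. CPM used TMM library sizes, with a prior count of 1 on the log2 scale. Named were the 5 largest changes in each direction, the 5 highest and 5 lowest members per kb, members that passed no filter, and members and related genes of set roles. The members and lists were chosen with earlier results of these data known. Alternatives included RLE, TMM without the members, no filter, DESeq2 1.42.0, a spline (5 degrees of freedom) of length and GC content, and each library left out. The result of 1 related gene is not reported here.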

Additional observations from a re-analysis of the deposited data

Results flagged for a closer look

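In 60 tests of 4 libraries each for a library far from its group, 3 stood out, and chance alone gives about 1 in 20. Rpl29 was at 43.1 CPM in GFR1, against 14.2 to 17.8 CPM in the other exGF libraries. Rps12 was at 218 CPM in GF replicate 2, against 156 to 167 CPM in the other GF libraries, and Rps13 at 107 CPM in the same library, against 80.1 to 81.3 CPM.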

How the results depend on the processing

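The median log2 fold change of the members ranged over the alternatives from -0.13 to 0.11 in GF against CON, from -0.33 to -0.09 in exGF against CON and from -0.29 to -0.09 in exGF against GF. The number of members called stayed at 0 in exGF against CON. In GF against CON it became 1 (Rpl7a) with the length and GC correction and 1 (Rpl7a) with DESeq2, and it was 0 to 0 with single libraries left out. In exGF against GF it became 1 (Rpl29) without a filter on low counts, and it was 0 to 1 with single libraries left out, 1 being without GFR1. The share of all genes called is not given for these alternatives, and whether such calls are particular to the members was not tested. Of named genes in GF against CON, Rpl36 ranged from -0.38 (without CON replicate 4) to 0.0519 (without CON replicate 2), Rps15 from -0.30 to 0.0368 without the same libraries, and Rpl26 from -0.0076 (without CON replicate 4) to 0.53 (without CON replicate 2). In exGF against GF, Rpl9 (0.0097) turned to -0.0869 with the multiply aligned share as covariate and ranged from -0.0658 to 0.0882 with single libraries left out. The cause of these changes was not tested. With the replicate block, 0 members were called in GF against CON and the median was 0.02. Deviations of CON and GF libraries of the same number correlated at -0.05 to 0.03, and those of different numbers at -0.08 to 0.10. No pairing by number was seen, though with so few libraries this check cannot exclude a weak one. No paired analysis was possible for exGF because the numbers of its columns could not be matched to samples. Low counts limited Rps27rt, Rpl3l, Rpl39l and Rpl10l, and what limits the other members was not tested.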
